A study of Mus musculus with 6 samples.

Results

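The Bcl2 family of apoptosis regulators was followed through 10 genes in ADC106 cells, a mouse angiosarcoma line, after transfection with an miR-497 mimic. Angiosarcoma is a malignant tumour of vessel-lining cells. The genes were chosen by symbol, for their roles in the family, from a table of 55401 mouse genes, and all 10 were found in it. They are the pro-survival genes Bcl2, Bcl2l1 and Mcl1, the effectors Bax and Bak1, and the BH3-only genes Bcl2l11, Bbc3, Pmaip1, Bid and Bad. One group of 3 libraries came from cells given a mimic labelled NC and genotype WT, and the other 3 came from cells given the miR-497 mimic and labelled as overexpressing miR-497. Both mimics were used at 12.5 nM, and RNA was extracted 3 days later, after which poly(A) RNA was sequenced. All libraries come from 1 cell line, untransfected cells were not analysed here, and nothing in the labels says that the replicates were separate cultures. The p-values therefore measure the spread between these libraries, which may be technical.

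The family sets the threshold for the mitochondrial route of apoptosis. The effectors Bax and Bak form pores in the outer mitochondrial membrane, which release cytochrome c and lead to caspase activation. Pro-survival proteins hold the effectors and the BH3-only proteins in check, and BH3-only proteins, which relay stress signals, neutralise the pro-survival proteins or activate the effectors. Bcl2 is a textbook target of the miR-15 and miR-16 family, to which miR-497 belongs by its seed.

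The mature sequences of miR-497 and the matches to its seed in the family's transcripts are shown first because they mark the members that hold a match to it. The microRNA sequences are from RefSeq (GRCm38.p6, chromosome 11, plus strand), with the seed (bases 2 to 8) in capitals. Whether the mimic delivers the 5p strand alone is not given in the labels. The 5p sequence shares its seed with the mature miR-15a, miR-15b, miR-16 and miR-195a 5p sequences in the same table.
mmu-miR-497a-5p: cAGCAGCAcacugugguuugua
mmu-miR-497a-3p: cAAACCACacugugguguuag

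Sites for the 5p seed were searched on the transcript strand in the longest 3' UTR of each gene in GENCODE M21. A site was TGCTGCT (7mer-m8), GCTGCTA (7mer-A1) or both together, TGCTGCTA (8mer), and the 6mer GCTGCT lies inside all of them. Of the 10 members, Bcl2 and Bad had a 7mer or 8mer in that 3' UTR and the others had none. Of the 12859 tested genes with a 3' UTR, which do not include Bak1, 28.1% had one. With so few members, no difference from this share is read. Bcl2 had 1 8mer, 1 7mer-A1 and 3 further 6mers in 5086 bases. Bad had 1 7mer-A1 near the start of a 3' UTR of 1026 bases. Mcl1 had 2 6mers in its 3' UTR and 1 7mer-m8 in its coding sequence, a place where 38.0% of the same tested genes had a 7mer or 8mer. In the 3' UTR searched, Bcl2l1 had 3 6mers, Bbc3 had 1, and Bax, Bak1, Bcl2l11, Pmaip1 and Bid had no match of 6 bases. In coding sequences 6mers were not counted. The shortest annotated 3' UTRs of Bcl2 (1942 bases) and Bad (36 bases) held no site, so whether a transcript carries one depends on its isoform, which gene counts do not resolve. The longer matches and 1 6mer of Bcl2l1 are given 5′ to 3′ as in the transcript (GRCm38), with the match in capitals.
Bcl2 8mer, chr1:106540790-106540813, minus strand: aaaccctgTGCTGCTAtcctgcca
Bcl2 7mer-A1, chr1:106542807-106542829, minus strand: gcagtctgGCTGCTAgaagcttt
Bad 7mer-A1, chr19:6950864-6950885, plus strand: accctcaGCTGCTAcccctcct
Mcl1 coding 7mer-m8, chr3:95660754-95660776, plus strand: cagaaatgTGCTGCTggcttttg
Bcl2l1 6mer, chr2:152781470-152781491, minus strand: ggggcttaGCTGCTgaaagtcc

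The libraries held 25777676 to 36159499 counts. Levels are CPM, which relate counts to library sizes scaled by TMM, and fold changes are miR-497 over NC on the log2 scale, with the standard error (SE) of the fit. Mitochondrially encoded genes took 2.03% to 2.15% of the counts with NC and 2.94% to 3.77% with miR-497, and their part in the results below was not tested. All 12 endothelial markers examined passed the filter on low counts, with a summed level of 10100 to 10800 CPM with NC and 9890 to 10300 CPM with miR-497. Of these, 7 were higher and 3 lower in the edgeR test described below. That is 83.3%, beside 49.8% called over all genes tested. Emcn (log2 fold change 1.035, edgeR adjusted p = 3.2e-10) and Cldn5 (1.02, edgeR adjusted p = 4.4e-10) were higher, and Egfl7 (-0.94, edgeR adjusted p = 4.5e-08) was lower. The 5 fibroblast and mural markers summed to 208 to 219 CPM with NC and 261 to 308 CPM with miR-497, none of them at 0. In this list Col1a1 (0.84, edgeR adjusted p = 7.4e-09) and Acta2 (0.92, edgeR adjusted p = 1.1e-08) were higher, and Pdgfrb (-0.37, edgeR adjusted p = 0.005) was lower. Of 5 haematopoietic markers, Cd3e was at 0 in all libraries and only Cd68, which was higher (1.08, edgeR adjusted p = 9.7e-07), passed the filter. These 5 together lay at 8.35 to 8.75 CPM with NC and 15.1 to 20.0 CPM with miR-497. The 4 epithelial markers together lay at 0.466 to 1.12 and 0.394 to 0.796 CPM. Only Cdh1 of these passed the filter, and it was not called (1.53, edgeR adjusted p = 0.069). The part of these marker levels in the results below was not tested. In bulk RNA, fewer cells of a type and less RNA per cell cannot be told apart.

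With miR-497, pro-survival Bcl2 and Bcl2l1 fell, the effector Bax fell slightly, and the BH3-only genes Bad, Bbc3 and Bcl2l11 rose. Of the 10 members, 9 passed the filter on low counts; 3 were higher and 3 lower in edgeR's quasi-likelihood test, with a Benjamini-Hochberg adjusted p under 0.05 over all 14661 genes tested. Over all tested genes 23.8% were higher and 26.0% lower, 49.8% in all, so a call by itself is common in this comparison. Among the 9 members, 66.7% were called. The CPM ranges of the groups did not overlap for 8 of the 9, against 57.4% of all tested genes. The members' median log2 fold change was -0.01, beside -0.02 for all tested genes. No member changed by 2-fold or more.

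**Figure D1:**
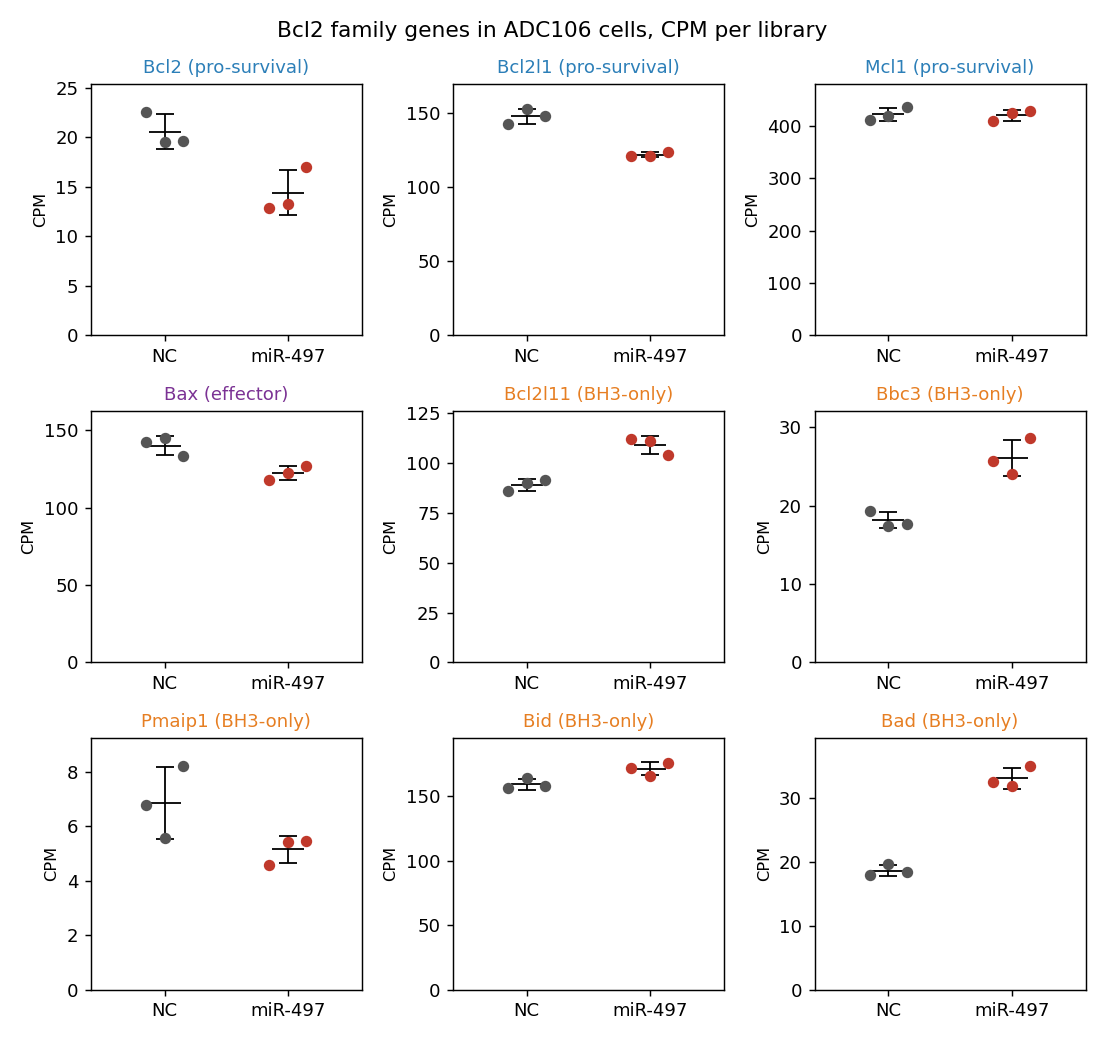
CPM of the 9 tested members in each library (points) with the group mean and SD (bars), for NC and miR-497. Bad, Bbc3 and Bcl2l11 lie higher in all 3 miR-497 libraries, Bcl2, Bcl2l1 and Bax lie lower, and the Mcl1 values overlap.

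Bcl2, the founding pro-survival gene of the family, had 22.6, 19.5 and 19.6 CPM in the NC libraries and 12.9, 13.3 and 17.0 CPM in the miR-497 libraries. All 3 miR-497 values lay below all NC values, and the third miR-497 library was the closest to them. Mean levels were 20.6 ± 1.74 and 14.4 ± 2.24 CPM (n = 3, SD), which gives a log2 fold change of -0.51 (adjusted p = 0.0011 in edgeR, SE 0.112), or 0.701 of the NC level. Leaving out single libraries moved this value between -0.65 and -0.44, and the call held each time. Opposite-strand exons of D630008O14Rik cover 6.09% of the exon bases of Bcl2, and that gene was at 0 in all libraries. Bcl2 lay at the 18.3 percentile of log2 fold changes of all tested genes.

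Bcl2l1, which encodes Bcl-xL and by another splice form the pro-apoptotic Bcl-xS, had 143, 153 and 148 CPM with NC and 121, 121 and 124 CPM with miR-497. The groups were well apart relative to their spread. The log2 fold change was -0.28 (adjusted p = 0.00017 in edgeR, SE 0.0506), with means of 148 ± 4.93 and 122 ± 1.79 CPM (n = 3, SD). Gene counts add the splice forms together.

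Mcl1, a pro-survival protein with a short half-life, was the most abundant member and showed no detectable change. Its levels were 412, 420 and 436 CPM with NC and 409, 425 and 428 CPM with miR-497, so the groups overlapped. The log2 fold change was -0.01 (adjusted p = 0.92 in edgeR, SE 0.0516), with a 95% confidence interval from -0.12 to 0.10. Its sign depended on the scaling of libraries, with 0.00796 under DESeq2 size factors and 0.04 under upper-quartile scaling. Of the 3 pro-survival members, Bcl2 and Bcl2l1 were thus called lower and Mcl1 was not called, and the differences between them were not tested.

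Bax, the pore-forming effector, had 142, 145 and 133 CPM with NC and 118, 122 and 127 CPM with miR-497. The ranges were close but did not overlap. Means of 140 ± 6.29 and 122 ± 4.22 CPM (n = 3, SD) gave a log2 fold change of -0.20 (adjusted p = 0.0055 in edgeR, SE 0.0537). This call was lost when per-library trends with GC content and length were removed, where the value was -0.10 (edgeR adjusted p = 0.165, or 0.317 with the replicate number as a block as well). It was also lost without the second NC library (-0.17, edgeR adjusted p = 0.0681). Exons of Gm45808 on the same strand share 12.2% of the exon bases of Bax, and that gene had 1 to 8 counts per library.

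Bak1, the other effector, was listed at 0 counts in all 6 libraries, so no fold change can be given. It is not read here as absence of the transcript. Wee1, a kinase that dividing cells need, was also listed at 0 in all 6, as were 23.0% of the 21897 protein-coding genes of the table. Exons of Ggnbp1 on the opposite strand cover 25.5% of the exon bases of Bak1, and the 2 annotated Ggnbp1 genes had at most 6 counts in any library.

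Bad showed the largest change among the members. It encodes a BH3-only protein that survival kinases inactivate by phosphorylation. Its levels were 17.9, 19.7 and 18.4 CPM with NC and 32.5, 31.9 and 35.0 CPM with miR-497, far apart relative to the spread within groups. The means were 18.7 ± 0.917 and 33.1 ± 1.68 CPM (n = 3, SD), a rise of 1.77-fold (log2 fold change 0.83, adjusted p = 2.3e-07 in edgeR, SE 0.0798). The longest annotated 3' UTR of Bad carries the 7mer-A1 shown above, while its shortest, of 36 bases, held none. Exons of Gpr137 on the opposite strand cover 20.5% of the exon bases of Bad, and Gpr137 moved the other way, from 24.6 ± 1.24 to 13.7 ± 1.33 CPM (n = 3, SD; log2 fold change -0.84, adjusted p = 1.5e-06 in edgeR, SE 0.0953). The strand setting of the counting is not given in the sources used here, and the part of shared bases in either value was not tested.

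Bbc3, which encodes Puma, a p53-inducible BH3-only protein that binds all pro-survival members, had 19.3, 17.4 and 17.7 CPM with NC. With miR-497 it had 25.7, 24.0 and 28.6 CPM, all above the NC values. The log2 fold change was 0.53 (adjusted p = 0.00012 in edgeR, SE 0.0908), or 1.44-fold. Bcl2l11, which encodes Bim, had 85.9, 90.0 and 91.7 CPM with NC and 112, 111 and 104 CPM with miR-497. These groups were also apart, by a smaller fold of 1.22 (log2 fold change 0.29, adjusted p = 0.00036 in edgeR, SE 0.0559). Both kept direction and call under all 15 alternative settings, as did Bcl2, Bcl2l1 and Bad.

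Bid and Pmaip1 did not pass the threshold. Bid, which links death receptors to mitochondria once Casp8 has cleaved its protein, had 156, 164 and 158 CPM with NC and 172, 166 and 176 CPM with miR-497, and these ranges did not overlap. Its log2 fold change was 0.11 (adjusted p = 0.08 in edgeR, SE 0.0508), with a 95% confidence interval from 0.00378 to 0.22. It passed under upper-quartile scaling (0.16, edgeR adjusted p = 0.0131) and under the GC and length offsets (0.17, edgeR adjusted p = 0.0177). Opposite-strand exons of Bcl2l13 cover 17.7% of its exon bases, and Bcl2l13 had a log2 fold change of -0.05 (adjusted p = 0.51 in edgeR, SE 0.0594).

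Pmaip1, which encodes Noxa, a BH3-only protein that binds Mcl1 in particular, was the member with the fewest counts, 115 to 231 per library apart from Bak1 at 0. It had 6.76, 5.56 and 8.21 CPM with NC and 4.58, 5.41 and 5.45 CPM with miR-497. The lowest NC value nearly touched the highest miR-497 value. The log2 fold change was -0.40 (adjusted p = 0.067 in edgeR, SE 0.176), and without the second NC library it was -0.53 (edgeR adjusted p = 0.0314). Of the p53-inducible members, Bbc3 rose, Bax fell within the limits given above, and Pmaip1 was lower without passing the test. The differences between them were not tested.

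**Figure D2:**
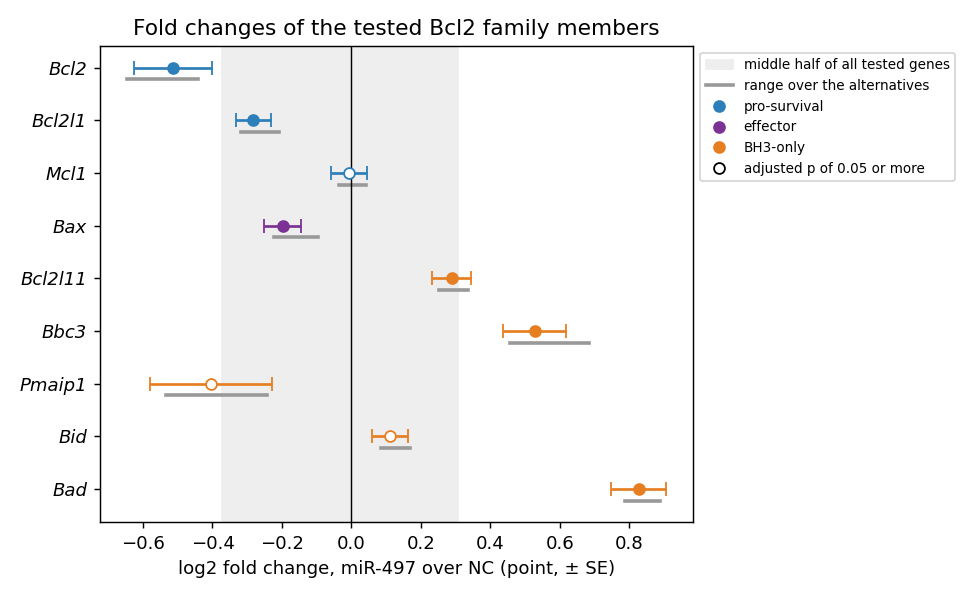
Log2 fold change of each tested member (points, miR-497 over NC) with its SE, coloured by role; grey lines give the lowest and highest value over the 15 alternatives and the shaded band the 25th to 75th percentile of all tested genes. Bcl2, Bbc3 and Bad, at -0.51, 0.53 and 0.83, and Pmaip1, which did not pass the test, lie outside the band, which runs from -0.37 to 0.31.

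Levels of different genes were set against each other per kilobase of exon. Mcl1 was highest with NC, at 124 ± 3.53 CPM per kilobase, followed by Bax at 88.9 ± 3.99, Bid at 44.8 ± 1.17 and Bcl2l1 at 32.3 ± 1.07 (n = 3, SD). Bcl2l11 (11.1 ± 0.372), Bbc3 (8.53 ± 0.489) and Bad (7.30 ± 0.358 CPM per kilobase) formed a lower tier. Pmaip1 (2.50 ± 0.485) and Bcl2 (2.25 ± 0.19 CPM per kilobase) came last of the members with counts. Bak1, listed at 0, was given no place in this order. With NC, the ranges of neighbours in this order did not overlap except for Pmaip1 and Bcl2. With miR-497, Bad rose to 13.0 ± 0.655 CPM per kilobase, and the ranges of Bcl2l11, Bad and Bbc3 overlapped from one to the next. The order of the upper 4 was the same in both groups. It depends on the length used: over the longest coding transcript, Bax with NC had 127 and Mcl1 124 CPM per kilobase.

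**Figure D3:**
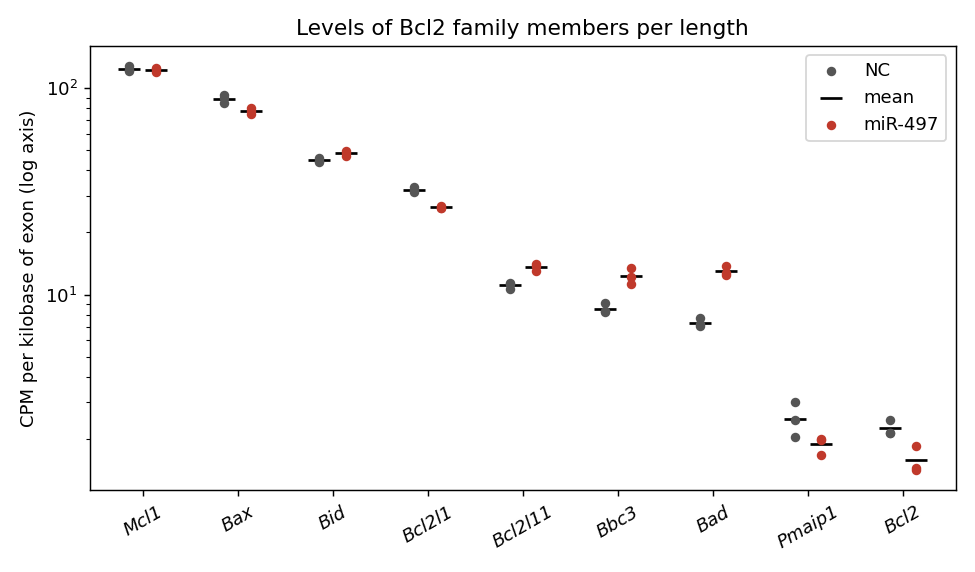
CPM per kilobase of exon of the 9 tested members (log axis) in each library, ordered by the NC mean, with group means as bars. With miR-497, Bad moves up to the level of Bcl2l11 and Bbc3, while Mcl1 remains on top at 123.

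Summed by role per kilobase, BH3-only members made up 23.0% to 23.1% of the level of the 10 members in the NC libraries. In the miR-497 libraries they made up 27.4% to 28.6%. The share of the effectors, which is that of Bax alone since Bak1 was at 0, ran from 26.3% to 28.3% with NC and from 24.1% to 24.7% with miR-497. For pro-survival members the shares were 48.6% to 50.6% and 47.2% to 48.1%. Mcl1 made up most of the pro-survival sum, so the falls of Bcl2 and Bcl2l1 changed it little, from 159 ± 3.51 to 151 ± 3.06 CPM per kilobase (n = 3, SD). Bak1 entered these sums as 0, which is not read as absence of its transcript, so the shares cover only the members with counts. Family genes outside the 10 were left out. Among them Bok, an effector relative, had 39.2 ± 2.22 CPM per kilobase with NC and 41.8 ± 2.68 with miR-497 (n = 3, SD). The shares also depend on the length used. Over the longest coding transcript, Bid with NC had 72.6 and Mcl1 124 CPM per kilobase, beside 44.8 and 124 over all exons. Bid, which was not called, made up 44.8 of the 74.2 CPM per kilobase of the BH3-only sum with NC. The sums describe transcripts, and no test was run on them.

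Outside the 10 members, 13 further family genes were examined, of which 7 could be tested. Bmf, a BH3-only gene, rose from 35.5 ± 1.66 to 67.5 ± 3.46 CPM (n = 3, SD; log2 fold change 0.93, adjusted p = 1.1e-08 in edgeR, SE 0.0692), a larger value than that of any of the 10; its difference from Bad was not tested. Bcl2l14 fell from 2.42 ± 0.681 to 1.27 ± 0.372 CPM (n = 3, SD; -0.94, adjusted p = 0.024 in edgeR, SE 0.324), a call that was lost without the second NC or the second miR-497 library. Bok, an effector relative, had a log2 fold change of 0.09 (adjusted p = 0.25 in edgeR, SE 0.0662), with 72.1 ± 4.09 and 77.0 ± 4.92 CPM (n = 3, SD). Bik, a BH3-only gene, had 0.13 (adjusted p = 0.28 in edgeR, SE 0.0952). The pro-survival relatives Bcl2a1a, Bcl2a1b and Bcl2a1d were listed at 0 throughout, and Bcl2l2 at 0 in all but 1 library. As for Bak1, this is not read as absence of the transcripts. On the same strand, exons of Gm29094 share 49.1% of the exon bases of Bcl2a1b, and those of Gm20521 share 13.3% of Bcl2l2. Bcl2a1a and Bcl2a1d share none, and the part of shared bases was not tested.

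Downstream of the family, 13 of 14 genes for the apoptosome, caspases and mitochondrial factors were tested, with 4 higher and 3 lower. That is 53.8%, beside 49.8% of all tested genes. Cycs, which encodes cytochrome c, fell from 166 ± 3.51 to 109 ± 5.04 CPM (n = 3, SD; log2 fold change -0.61, edgeR adjusted p = 5.8e-08). Htra2, a protease released with it, fell by 0.83 on the log2 scale (edgeR adjusted p = 2.2e-07). Casp6, an executioner caspase, rose from 10.4 ± 0.0547 to 18.5 ± 0.401 CPM (n = 3, SD; 0.84, edgeR adjusted p = 1.5e-06). Apaf1, the scaffold of the apoptosome, rose by 0.28 (edgeR adjusted p = 0.00021), while Casp9 (0.17, edgeR adjusted p = 0.15) did not pass. The genes thus moved in both directions within the list, with a median log2 fold change of 0.06.

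Of 7 caspase inhibitors, Birc5, which encodes survivin and also acts in mitosis, fell from 66.0 ± 2.75 to 43.1 ± 4.88 CPM (n = 3, SD; log2 fold change -0.62, edgeR adjusted p = 6.2e-06). Birc6 rose by 0.18 (edgeR adjusted p = 0.019), a call lost under the GC and length offsets and when the first NC, the second NC or the second miR-497 library was left out. Xiap, the direct inhibitor of effector caspases, had -0.06 (adjusted p = 0.48 in edgeR, SE 0.0673). The list had 28.6% called, beside 49.8% of all tested genes, and a median of 0.06.

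In the death receptor pathway, which leads to Bid cleavage, all 10 genes were tested, and 3 were higher and 3 lower. This makes 60.0% called, beside 49.8% of all tested genes. Tnfrsf1b, a receptor for tumour necrosis factor without a death domain, rose from 26.2 ± 1.38 to 72.0 ± 3.86 CPM (n = 3, SD; log2 fold change 1.45, edgeR adjusted p = 8.8e-11). Ripk1 (-0.34, edgeR adjusted p = 9.2e-05) and Cflar, which encodes the Casp8 antagonist c-FLIP (-0.32, edgeR adjusted p = 0.00013), fell. Casp8 itself had -0.04 (adjusted p = 0.58 in edgeR, SE 0.059). The median of the list was -0.09.

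Among 8 mitochondrial partners, Dnm1l, the fission GTPase, fell by 0.51 on the log2 scale (edgeR adjusted p = 2.8e-06). Vdac2, a porin that binds Bak and Bax, rose by 0.26 (edgeR adjusted p = 0.00057), and Vdac1 rose by 0.13 at the edge of the threshold (edgeR adjusted p = 0.049). The count of 2 higher genes was 1 under several alternatives, among them the replicate block and leaving out either of the first 2 libraries of each group. In this list 37.5% were called, beside 49.8% of all tested genes, and its median was -0.03.

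Of 21 genes that regulate the members or their proteins, 20 were tested, with 6 higher and 8 lower. Thus 70.0% were called, beside 49.8% of all tested genes, with a median of -0.09. Leaving out single libraries gave 5 to 6 higher and 6 to 10 lower genes in this list. With the GC and length offsets 6 were higher and 6 lower. Foxo3, a transcription factor known to induce Bcl2l11 and Bbc3, rose from 28.9 ± 0.306 to 52.4 ± 3.92 CPM (n = 3, SD; log2 fold change 0.86, edgeR adjusted p = 5.3e-08). Trp53, which encodes the inducer of Bbc3, Pmaip1 and Bax, rose by 0.38 (adjusted p = 2e-05 in edgeR, SE 0.0548), and Foxo1 rose by 0.28 (edgeR adjusted p = 0.0021). Pim3, of a kinase family that phosphorylates Bad, fell from 95.9 ± 3.14 to 51.0 ± 3.74 CPM (n = 3, SD; -0.91, edgeR adjusted p = 7.2e-09). Atf4, the stress-response factor, fell by 0.71 (edgeR adjusted p = 1.9e-08). Of the light chains that tether Bim and Bmf proteins, Dynll1 rose by 0.34 (edgeR adjusted p = 5.8e-05) and Dynll2 fell by 0.62 (edgeR adjusted p = 7.4e-08). The Mcl1 deubiquitinase Usp9x (-0.15, adjusted p = 0.15 in edgeR, SE 0.0844) and ligase Huwe1 (-0.13, adjusted p = 0.15 in edgeR, SE 0.075) did not pass the test. The 6 genes of the list that were not called also included Ddit3 (-0.04, adjusted p = 0.77 in edgeR), E2f1 (0.003, adjusted p = 0.97 in edgeR) and Akt1 (-0.003, adjusted p = 0.97 in edgeR). Changes in these transcripts and in the members are given side by side, and no link between them was tested.

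**Figure D4:**
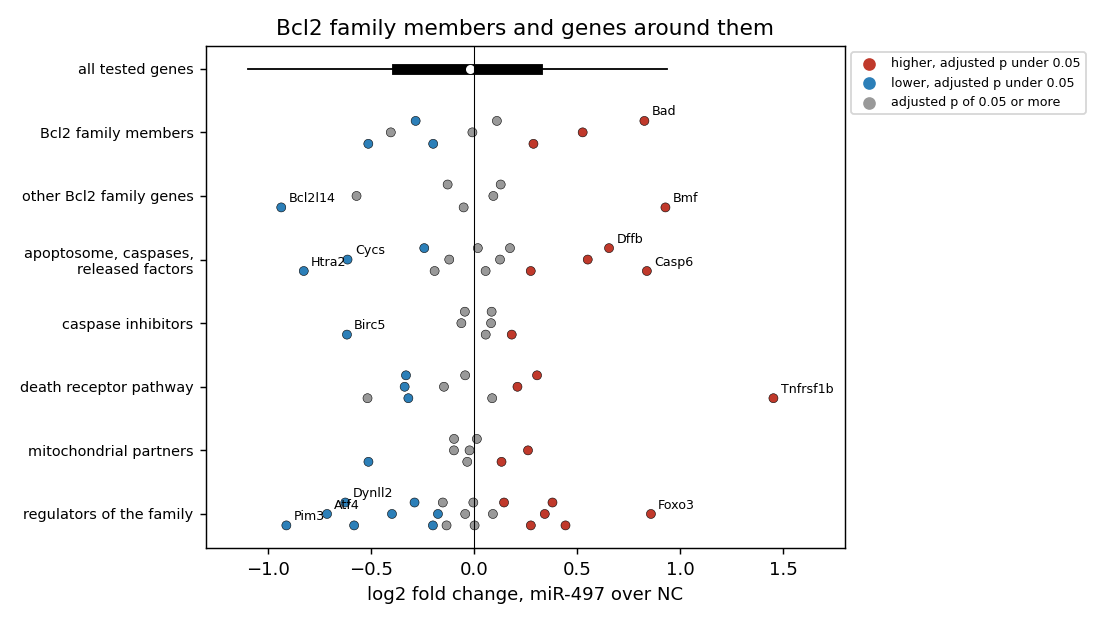
Log2 fold changes (miR-497 over NC) of the members and of the 6 lists around them, 1 point per tested gene, coloured by call, with genes past 0.6 in either direction named. The top bar gives the 5th to 95th percentile of all tested genes (-1.10 to 0.94; thick part, 25th to 75th percentile); every list holds genes on both sides of 0.

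Bad had the smallest p of the members, and the 3 tested genes whose log2 CPM followed it most closely over the 6 libraries were Adrm1, Plscr3 and Cldn5, with Pearson r from 0.9996 to 0.9999. The libraries fall into the 2 groups, so these values mainly describe a difference between groups of the same direction, and no p is given.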

How the data were processed

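The deposited values are raw counts of reads per gene, which the authors had not normalized, for 6 libraries; per the submitters' processing notes the tools were STAR 2.5.4b, featureCounts, Subread 1.6.1 and edgeR 3.32.1 with GRCm38, without roles or settings. The annotation release, strand setting and handling of reads that align to several places are not given in the sources used here. Groups and replicate numbers were taken from the titles. GENCODE M21 (GRCm38) supplied symbols for 55141 of 55401 identifiers, exon lengths, GC content and 3' UTRs.

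From the counts, edgeR 4.0.16 (R 4.3.3) was run with filterByExpr (minimum count 10, minimum total 15), TMM scaling and a quasi-likelihood F-test on the group, 2-sided, adjusted by Benjamini-Hochberg over 14661 genes, at 0.05. The SE is the log2 fold change over the square root of F. Replicate pairs differed beyond sampling noise (chi-square per degree of freedom 8.18 to 12.5), so all were kept. The members and lists were chosen with earlier results of these data known. All members are named; in each list, so are the called genes with the smallest adjusted p, up to 3. Some other list genes are named by role, chosen after their values were seen, and the rest enter the counts only. Alternatives were other scalings, filters, DESeq2 1.42.0, limma 3.58.1 voom, the replicate block, GC and length offsets, each library left out, the shortest 3' UTR and the coding transcript length.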

Additional observations from a re-analysis of the deposited data

How the results depend on the processing

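Over the 9 tested members and 15 alternatives, 121 of 135 values kept direction and side of the threshold; Bcl2, Bcl2l1, Bcl2l11, Bbc3 and Bad did so under all 15. Mcl1, not called under any, changed sign: 0.00796 with DESeq2 size factors, 0.0395 with upper-quartile scaling, 0.00209 with a mean count of at least 50, 0.00808 in the DESeq2 Wald test, 0.0409 with GC and length offsets and 0.0416 with the replicate block as well; without single libraries it ran from -0.0362 to 0.0255. Bax lost its call under the GC and length offsets (-0.0952; with the replicate block -0.0955), and ran from -0.223 to -0.167 without single libraries. Bid passed under upper-quartile scaling (0.158) and GC and length offsets (0.169). Pmaip1 ran from -0.534 to -0.243 without single libraries and passed only without the second NC library. The causes were not tested. Leaving out single libraries gave 1 to 2 higher and 0 to 1 lower genes among the other family genes, 0 to 1 higher caspase inhibitors and 1 to 2 higher mitochondrial partners; the caspase inhibitors had 0 higher under GC and length offsets with and without the block, and the partners had 1 higher without a filter, with the replicate block and with the block and offsets. Over all genes, 3029 to 3998 were higher and 3138 to 3995 lower. The replicate block gave 3177 higher and 3563 lower genes. Same-numbered libraries had deviations correlated at -0.12, -0.035 and -0.13, and 0 of the 6 libraries correlated best with the library of their own number, so the numbers were not taken as pairs. Low counts limit Pmaip1, and Bak1 at 0 allows no statement. Per kilobase of the longest coding transcript instead of all exons, the levels of 7 members lay higher by more than 1 SD between replicates; the length scales both groups alike.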
